A study of Mus musculus with 2 samples.

Results

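The clustered protocadherins were examined on 2 Affymetrix Mouse Gene 1.0 ST arrays of mouse embryonic stem (ES) cells, as all probe sets carrying at least 1 platform gene symbol that starts with Pcdha, Pcdhb or Pcdhg. A probe set is a group of array probes summarized into 1 value. The rule found 23 of 35557 probe sets, or of 23410 with at least 1 gene symbol (called named probe sets here), which stand for 36 genes. Of these, 22 lay in the beta cluster and each carried 1 symbol, so that all 22 beta genes of the RefSeq annotation were read, from Pcdhb1 to Pcdhb22. The alpha cluster had 1 probe set, which carried 14 symbols at once, those of 12 variable-type genes and of 2 C-type genes (Pcdhac1 and Pcdhac2). No probe set of the annotation used carried a symbol of the gamma cluster, which has 22 genes in RefSeq and was not analysed here.

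The cells were ROSA26-rtTA ES cells, in which the ROSA26 locus drives the doxycycline-dependent activator, carrying a tetracycline-responsive transgene for CTCFL with V5 and green fluorescent protein (GFP) tags. CTCFL, found in male germ cells, is a paralog of CTCF, a zinc finger protein that shapes chromatin loops. The array called induced held RNA of GFP-sorted cells after 3 days of doxycycline, and the array called non-induced held RNA of the same transgenic cells without doxycycline and without sorting, so that both groups carried the activator and the transgene. Transfected cells were selected with G418 and clones were screened, but how many clones gave the RNA is not stated in the sources used here. With 1 array per group there was no replicate check and no test, and doxycycline, sorting and CTCFL cannot be told apart.

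Clustered protocadherins are cell surface proteins of the cadherin superfamily, and they are known above all from neurons, where each cell expresses its own combination and uses it to tell its own branches from those of other cells. In the alpha and gamma clusters every variable exon has its own promoter and is spliced to constant exons shared by the whole cluster, whereas beta genes consist of a single coding exon without a constant part. Promoter choice is known to depend on CTCF and cohesin, which join a promoter to distal enhancers in a DNA loop, and on DNA methylation, which keeps unused promoters silent. The comparison therefore asked whether the genes of these CTCF-dependent clusters differed in level when the germ line paralog of CTCF was expressed in ES cells.

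Ctcfl itself was higher by 3.45 on the log2 scale in the induced array (9.44 against 5.99), as the labels would have it, but transgene and endogenous transcripts are not told apart by its probe set. The 10 ES cell markers, among them Pou5f1, Nanog and Sox2, all reached the median level of the arrays, with a median difference of -0.07.

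Clustered protocadherins were at the low end of both arrays, and 0 of the 23 probe sets reached the median of all named values, a log2 signal of 6.36 that was used as a floor. Over the 22 beta probe sets the log2 signal ran from 3.00 (Pcdhb9) to 5.76 (Pcdhb15) in the induced array, with a median of 4.30, and from 3.03 (Pcdhb19) to 5.84 (Pcdhb4) in the non-induced array, with a median of 4.26. The higher of the paired values fell short of the floor by 0.52 (Pcdhb4) to 3.01 (Pcdhb9) log2 units. On the linear scale the values of all 23 probe sets lay between 7.97 and 57.2, where the floor corresponds to 82.3. Signals of this size cannot be divided here into weak expression and background, since background signals of the arrays were not analysed here. Probe sets differ in how well they bind their target, so an order of signals is not an order of transcript abundance.

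In the induced array 18 of the 23 probe sets, and in the non-induced array 20, were below the 25th percentile of all named values, a log2 signal of 5.19, as were 24.0% and 26.0% of all named probe sets. Pcdhb4, Pcdhb6, Pcdhb8, Pcdhb15 and the alpha probe set reached that level in at least 1 array. The alpha probe set (10455019) was at 5.39 against 5.18, and differed by 0.21. It gives 1 value for a whole cluster, and which of the 14 alpha transcripts gave the signal cannot be read from it. In RNA of many cells, fewer cells with a transcript and less transcript per cell cannot be told apart.

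**Figure D1:**
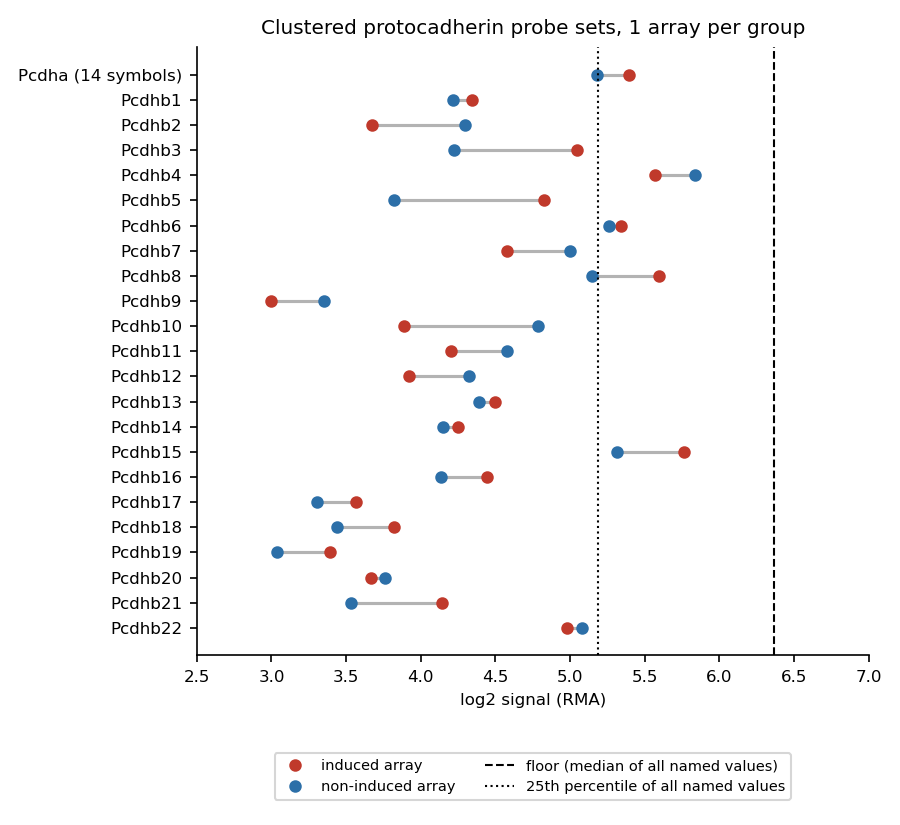
Log2 signal (x axis) of the 23 clustered protocadherin probe sets (y axis, in chromosomal order) in the induced array (red) and the non-induced array (blue), 1 point per array joined by a grey line; a dashed line marks the floor (6.36) and a dotted line the 25th percentile of named values (5.19). All points lie left of the dashed line, and red points lie right of blue ones in 14 of the 23 pairs.

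None of the clustered protocadherins was called higher or lower, where a call asked for a difference of log2 1 or more, induced minus non-induced, and a higher value at or above the floor. Over all 23410 named probe sets 0.252% were called higher and 1.08% lower by the same rule. No member could be called, whatever its difference, because none reached the floor. The differences themselves went both ways, with 14 of 23 probe sets above 0 (60.9%) and 9 below 0, and a median of 0.11. Among the 10892 named probe sets below the floor in both arrays 56.6% were above 0 and the median was 0.06, so that the share and the median of the protocadherins were close to those of other dim probe sets.

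The spread of the differences was close to that of dim probe sets in general, or slightly wider. Their SD was 0.47 over the 23 members and 0.42 over the named probe sets below the floor. The middle 50% of members lay between -0.31 and 0.37, against -0.20 and 0.32 for those probe sets. A difference of at least 0.5 in either direction was found in 5 of 23 members (21.7%) and in 21.5% of the probe sets below the floor. Among named probe sets with mean levels in the range of the members the share was 24.0%. Across the 22 beta probe sets, which share both arrays and are not independent, induced and non-induced signals had a Pearson r of 0.80. It was 0.82 across the 7757 named probe sets with mean levels in the range of the members, and 0.91 across those below the floor.

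**Figure D2:**
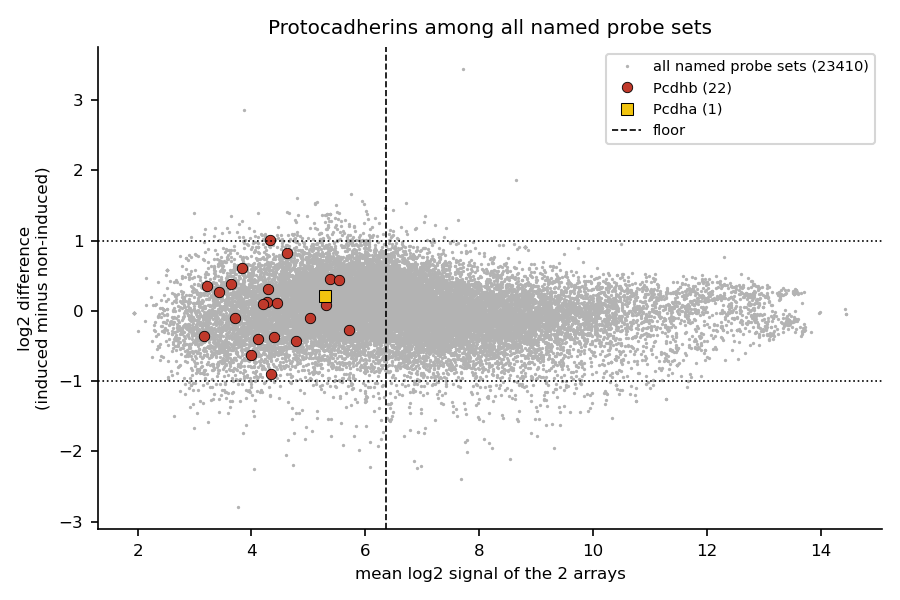
Log2 difference, induced minus non-induced (y axis), against mean log2 signal of the arrays (x axis) for 23410 named probe sets (grey), with the 22 beta probe sets as red circles and the alpha probe set as a yellow square; the dashed line is the floor and the dotted lines mark a difference of log2 1. The protocadherins lie left of the floor and within the cloud of dim probe sets, from -0.90 to 1.01.

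The widest upward difference was that of Pcdhb5 (probe set 10455065), a beta isoform gene, with log2 signals of 4.83 (induced) and 3.82 (non-induced). The difference of 1.01, or 2.01-fold, was the 1 member past log2 1 when the floor was left out, where 0.803% of all named probe sets were past it upwards and 1.6% downwards, and 1.18% and 1.12% of those below the floor. These values stood at percentiles 18.1 and 6.71 of the named values of their arrays. On the linear scale Pcdhb5 was at 28.3 and 14.1, and once 32 was added to every linear value as a constant, which damps differences between dim signals, its log2 difference was 0.39.

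Pcdhb3 and Pcdhb21 followed among the members above 0. Pcdhb3 was at 5.04 (induced) and 4.22 (non-induced), which differed by 0.82 (0.36 with the constant). Pcdhb21 was at 4.14 and 3.53, a difference of 0.61 (0.19 with the constant). Pcdhb8, at 5.60 and 5.15, and Pcdhb15, at 5.76 and 5.31, differed by 0.45 each. These last genes were among the members with the highest signals, and they kept 0.25 and 0.26 with the constant.

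Downwards, the widest difference was that of Pcdhb10 (probe set 10455084), at 3.89 induced and 4.79 non-induced on the log2 scale, which differed by -0.90 (-0.35 with the constant). Pcdhb2 was at 3.68 and 4.30, a difference of -0.62 (-0.21 with the constant), and Pcdhb7 at 4.58 and 5.0, a difference of -0.43 (-0.20 with the constant). Pcdhb4, the beta gene with the highest mean signal, was at 5.57 and 5.84, a difference of -0.27 (-0.17 with the constant). The 5 members that differed by at least 0.5 in either direction had log2 signals between 3.53 and 5.04, and the brightest members were not among them.

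The remaining 13 beta probe sets differed by -0.41 (Pcdhb12) to 0.38 (Pcdhb18). Among them Pcdhb6 (0.08), Pcdhb14 (0.10), Pcdhb13 (0.11), Pcdhb20 (-0.09), Pcdhb22 (-0.10) and Pcdhb1 (0.13) were nearest to 0. Across the 22 beta probe sets, which share both arrays, the Spearman rho of the difference with mean signal was 0.0040. Beta genes are close paralogs in their coding exons, so a probe set may also read neighbours of the gene it is named after, and values of single genes are uncertain to that extent.

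Signs were followed along chromosome 18, in the gene order of RefSeq (GRCm38.p6). In the deposited values 10 of the 21 pairs of adjacent genes had differences of the same sign. After repeated quantile normalization 12 pairs did, so whether same-sign neighbours were in the majority depended on the scaling. Pcdhb9 to Pcdhb12 were all below 0, at -0.90 to -0.35 on the log2 scale, and the 7 genes from Pcdhb13 to Pcdhb19 were all above 0, at 0.10 to 0.45. The first genes of the cluster alternated, with Pcdhb1, Pcdhb3, Pcdhb5, Pcdhb6 and Pcdhb8 above 0 and Pcdhb2, Pcdhb4 and Pcdhb7 below. Across the beta genes the Spearman rho of the difference with gene order was 0.17. The first 11 genes had a median of -0.27, with 5 above 0, and held both extremes, Pcdhb5 (1.01) and Pcdhb10 (-0.90). The last 11 had a median of 0.26, with 8 above 0. The signs from Pcdhb9 to Pcdhb19 were the same under each of the 4 other scalings. That says little about stability, since the added constant cannot change a sign and centring moved every difference by only 0.09. These stretches were noticed after their values were seen, no test was made, and paralogs next to each other may share probes.

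**Figure D3:**
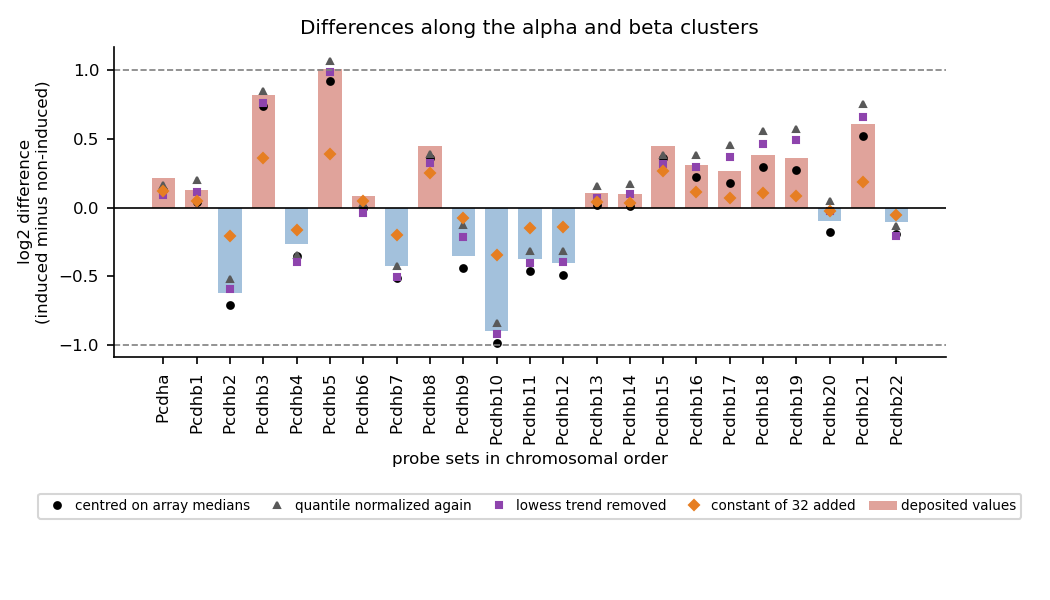
Log2 difference, induced minus non-induced (y axis), of the alpha and the 22 beta probe sets in chromosomal order (x axis); bars are the deposited values (red above 0, blue below 0), symbols the same differences under 4 other scalings, and dashed lines mark log2 1. Pcdhb5 (1.01) and Pcdhb10 (-0.90) are the extremes, Pcdhb13 to Pcdhb19 lie above 0, and the added constant draws all values towards 0.

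Genes around the clusters were then examined, since they share the chromosomal region but not the promoter type. Of 30 measured genes next to the clusters 25 reached the floor, 14 were above 0 and 16 below, and the median was -0.07, against 0.01 over all 19938 genes that have probe sets with 1 symbol. None of these 30 was called, where 0.256% of all genes were called higher and 0.958% lower. Slc25a2, a mitochondrial carrier gene between the beta and gamma clusters, was at 5.26 (induced) and 4.24 (non-induced), which differed by 1.02, below the floor (0.47 with the constant). Taf7, which encodes a subunit of the general transcription factor TFIID and lies beside Slc25a2, was at 8.55 and 8.71, a difference of -0.16. Arap3, a GTPase-activating protein gene beyond the gamma cluster, was at 6.52 and 5.75, a difference of 0.77, and Zmat2, a zinc finger gene before the alpha cluster, at 9.76 and 10.19, a difference of -0.44. Vaultrc5, a vault RNA gene between Zmat2 and the alpha cluster, was at 8.93 and 10.05, a difference of -1.12. It met the rule for a lower call and stayed past log2 1 under the 4 other scalings (-1.21 to -1.02). Vaultrc5 was not in the list and was chosen after its value was seen.

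Genes known to set or silence protocadherin promoters were at or above the floor, and most had differences below 0. All 15 measured regulators reached the floor in at least 1 array and 14 of them were below 0, with a median of -0.16. Among all genes reaching the floor 4968 were above 0 and 5700 below, with a median of -0.03. The list was bright, with a median log2 level of 8.51 in the induced and 8.75 in the non-induced array. Once the trend of differences with signal level was removed, its median was -0.05. Of the 10 ES cell markers, which were also bright, 7 were below 0. The part of signal level in the count of 14 was not tested. No regulator was called, where 0.256% of all genes were called higher and 0.958% lower. Dnmt3b, the de novo DNA methyltransferase of these promoters, was at 7.42 against 7.94 (-0.51), and Smchd1, a chromatin protein that represses the clusters, at 8.51 against 8.77 (-0.25). The other Smchd1 probe set was at 8.06 against 8.13 (-0.07). Lrif1, a partner of SMCHD1, was at 5.60 against 6.46 (-0.85), the widest of the list, and Tet1, a methylcytosine oxidase gene, at 8.72 against 9.10 (-0.38). The other Tet1 probe sets differed by -0.60 and -0.35. Wiz, a zinc finger partner of the H3K9 methyltransferases, was the 1 member above 0, at 7.39 against 7.12.

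Of the 16 CTCF and cohesin genes 13 were below 0, with a median of -0.22. The 3 above 0 were Ctcfl, Rad21 (0.11) and Hdac8 (0.13). Among all genes reaching the floor 4968 were above 0 and 5700 below. The list was bright as well, at a median log2 level of 8.78 in the induced and 9.02 in the non-induced array. Its median was -0.12 once the trend of differences with signal level was removed. Ctcf was at 8.66 in the induced and 8.93 in the non-induced array (-0.27), the cohesin loader gene Nipbl at 7.94 and 8.30 (-0.35) and the cohesin release factor gene Wapl at 9.46 and 9.73 (-0.26). Stag2, a cohesin subunit gene, was at 8.52 and 9.48 (-0.96), and it was past log2 1 when each array was centred on its median (-1.05). Ctcfl was the 1 gene of this list called in the deposited values, where 0.256% of all genes were called higher and 0.958% lower.

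Partners and processing enzymes of the protocadherins went both ways. Of 19 measured genes 10 were above 0, and the median was 0.06. Cyfip2, a subunit of the WAVE complex that links membrane proteins to actin, was at 7.24 in the induced and 6.31 in the non-induced array (0.92). Fyn, a kinase gene, was at 7.44 and 6.96 (0.49), Marcks, an actin-regulating substrate of protein kinase C, at 7.98 and 8.49 (-0.51), and Adam10, the protease that sheds protocadherin ectodomains, at 6.67 and 7.0 (-0.33). None of the list was called, where 0.256% of all genes were called higher and 0.958% lower.

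Protocadherins outside the clusters were also mostly dim. Of 12 genes 3 reached the floor, and 9 were above 0, with a median of 0.07, close to the 0.11 of the clustered genes. Among named probe sets below the floor in both arrays 56.6% were above 0, with a median of 0.06. Pcdh12, an endothelial and trophoblast protocadherin that lies beyond the gamma cluster, was at 7.71 in the induced and 7.12 in the non-induced array (0.59), Pcdh17 at 6.40 and 5.97 (0.43) and Pcdh19 at 5.46 and 4.83 (0.63, below the floor). Pcdh15, which also reached the floor, differed by 0.05, and by 0.76 in its other probe set. The 3 genes below 0 were Pcdh10 (-0.32), Pcdh1 (-0.30) and Pcdh8 (-0.09). Of 40 other cadherin genes 9 reached the floor and 25 were above 0, with a median of 0.10. Cdh1, the E-cadherin gene of ES cells, was at 9.01 and 9.0, and Cdh10 was at 5.77 and 4.66 (1.11, below the floor, and 0.59 with the constant). Among the 15 cadherin genes below 0 the widest were Cdh2 (-0.55) and Cdhr4 (-0.54), both below the floor. Fat3 was at 6.85 and 6.07 (0.78) by its brightest probe set, but its 15 probe sets ran from -0.67 to 1.17, 5 of them below 0, and the other 1 that reached the floor differed by 0.01. No gene of either list was called, where 0.256% of all genes were called higher and 0.958% lower.

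Markers of cell types that express clustered protocadherins, or that an ES culture could hold, were set beside these values. Of 12 neural markers 5 reached the floor, 6 were above 0 and 6 below, and the median difference was -0.06; their median log2 level was 6.04 in both arrays. Stmn2, a neuronal tubulin regulator gene, was called lower, at 6.67 in the induced and 7.86 in the non-induced array (-1.19), but was at -0.98 with the constant. It was the 1 neural marker called, where 0.256% of all genes were called higher and 0.958% lower. The other neural markers that reached the floor were Sox1 (0.26), Ncam1 (0.03), Tubb3 (-0.12) and Elavl3 (-0.40). The early neuronal genes Dcx and Neurod1 were below the floor, at 4.79 against 5.11 and at 4.82 against 5.63. Pax6 was at 6.12 and 5.0 (1.12, below the floor, and 0.67 with the constant). Of 10 fibroblast markers 7 reached the floor and 8 were above 0, with a median difference of 0.29 and a median log2 level of 7.03 against 6.59. Those at the floor were Col3a1, at 6.60 and 6.07 (0.53), Col1a2 (0.47), Col1a1 (0.42), Thy1 (0.41), Fn1 (0.37), Sparc (0.22) and Vim (-0.25). Postn (0.04) and the fibroblast proteoglycan genes Dcn (-0.28) and Lum (0.17) were below the floor. Over all genes the median difference was 0.01. Only the induced cells were sorted, and the part of these cell types in the protocadherin values was not tested.

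**Figure D4:**
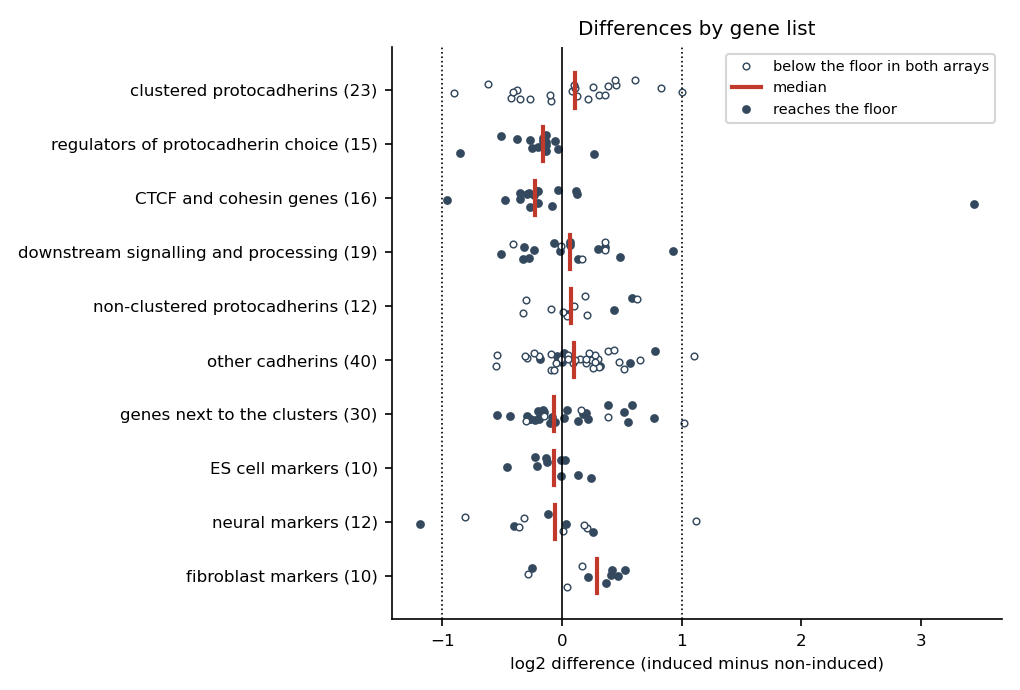
Log2 difference, induced minus non-induced (x axis), of each measured gene or probe set by list (y axis, number measured in brackets); filled points reach the floor in at least 1 array, open points do not, red bars are medians, dotted lines mark log2 1, and vertical jitter has no meaning. The 23 clustered protocadherins are all open and spread around a median of 0.11, and the single point far to the right is Ctcfl (3.45).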

How the data were processed

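RNA of induced and non-induced ES cells (300 ng per array, 1 array per group) was hybridized by the authors. The deposited log2 values, 1 per probe set and array, come from the authors, who used RMA (robust multi-array averaging: background correction, quantile normalization and summary over probes). RMA compresses differences of dim genes. The RMA version and the annotation build are not stated in these sources. The number of arrays limits the precision, and no test was possible.

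Groups came from the sample labels. Of 35557 probe sets 21789 had 1 symbol in the platform annotation, 1621 several and 12147 none. Members were matched by gene identifier to RefSeq (GRCm38.p6, 36 of 36 genes), used for names and gene order. A gene in a list was read by its brightest probe set with 1 symbol. Differences are induced minus non-induced. The floor was the median of all values of named probe sets. Members and lists were chosen with earlier results of these data known. Named were all members at or above the floor or past log2 1 and the 3 highest and 3 lowest per cluster. C-type members, members with several symbols, Ctcfl and Ctcf were named too. Up to 4 genes with wide differences were to be named per list, but not always the widest. Left out were for example Pds5b (-0.48), Hars2 (-0.54) and Cystm1 (0.55). The other genes named, such as Taf7 or Cdh1, were chosen with their values known. Alternatives were centring on array medians, repeated quantile normalization, lowess (fraction 0.3), a constant of 32 on linear values, a call size of log2 0.58, other floors, means for medians and averaged probe sets. Calls were tested on simulated data in which only probe sets well above the floor were shifted. That test does not cover the members, which were below the floor. Scripts ran in Python 3.11.15 (matplotlib 3.10.9, statsmodels 0.14.6, scipy 1.17.1, pandas 2.3.3, numpy 2.4.6).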

Additional observations from a re-analysis of the deposited data

How the results depend on the processing

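No protocadherin probe set reached the floor under any of the 4 scalings, so that the count of 0 calls was fixed under these, a smaller size or a higher floor and says nothing about stability. Without a floor the count was 1 (Pcdhb5). With the floor at the 25th percentile 5 probe sets reached it in place of 0. The difference of Pcdhb5, 1.01 in the deposited values, was 1.07 after quantile normalization and fell short of log2 1 after lowess (0.99), after centring (0.92) and with the constant (0.39). The beta median, 0.10, was 0.02 after centring and 0.16 after quantile normalization. Pcdhb6 changed sign after centring and after lowess, and Pcdhb20 after quantile normalization. Without members at the floor, the median of members above it could not be given, and as no probe sets shared symbols, averaging them did not apply. The list medians of the regulators (-0.24 to -0.05), the CTCF and cohesin genes (-0.31 to -0.11) and the fibroblast markers (0.21 to 0.40) kept their sign, while those of the signalling genes (-0.02 to 0.11), non-clustered protocadherins (-0.02 to 0.15), genes next to the clusters (-0.16 to 0.05) and ES cell markers (-0.15 to 0.01) crossed 0. After centring, which moved the median of all named differences from 0.01 to -0.07, 8.78% of calls among all named probe sets were higher, against 18.9% in the deposited values, 7.23% with the constant, 22.5% after lowess and 26.3% after quantile normalization. A change was taken as small if under the SD of all named differences, 0.42, in the absence of replicates. Signal over background was unknown. No paired analysis was possible because each group had 1 array.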
